A study of Mus musculus with 16 samples.

Results

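The LRRTM, neurexin and neuroligin genes encode adhesion proteins that face each other across the synaptic cleft. In the hippocampus of mice that had expressed the CREB activator VP16-CREB for 3 weeks, the pools stood at 26.1% to 27.8% of the littermate mean at one probe set of Lrrtm4, and no probe set of the other members passed the test. The set comprised 9 genes, Lrrtm1, Lrrtm2, Lrrtm3, Lrrtm4, Nrxn2, Nrxn3, Nlgn1, Nlgn2 and Nlgn3, of 18193 genes with a probe set that carried exactly 1 gene symbol. They were taken by gene symbol in the platform annotation, with all of their probe sets, which were 26 of 34945. Of these, 25 passed the filter on low intensity and were tested among 27044 probe sets, and 1 of the 2 probe sets of Nlgn1 did not. The genes were chosen by the low intensity of Lrrtm4 in VP16-CREB pools at 3 weeks. Every value and call of that contrast is therefore given as a description and without a p-value.

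Neurexins sit on the presynaptic membrane and reach across the cleft to several kinds of postsynaptic partner, among them the neuroligins and the leucine-rich repeat transmembrane (LRRTM) proteins. The LRRTM proteins are found at excitatory synapses, where they take part in holding AMPA receptors in place, and LRRTM4 is known from rodents as a protein of the dendrites of dentate granule neurons that also binds heparan sulphate chains, including those of the glypican GPC4. Neuroligin 1 is mainly a protein of excitatory synapses, neuroligin 2 of inhibitory synapses, and neuroligin 3 occurs at both.

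RNA of whole hippocampus was hybridised to 16 Affymetrix Mouse Genome 430 2.0 arrays, 1 pool of 3 to 4 mice of the same age, sex and genotype per array. VP16-CREB, a CREB fused to a viral activation domain, was carried as a tetO-VP16-CREB transgene on C57BL/6J, and those mice and their WT C57BL/6J littermates were raised on doxycycline (dox), which keeps a tetO promoter silent. The groups were VP16-CREB mice and littermates 1 week after dox removal at 3 weeks of age (2 pools each), VP16-CREB mice and littermates 3 weeks after dox removal at 6 weeks of age (3 pools each), and TetO-A-CREB-95 mice and WT littermates of 6 weeks raised without dox (3 pools each). A-CREB is a dominant negative protein that pairs with CREB and keeps it from DNA. The series design calls the induced mice bitransgenic, and the promoter that drove the transactivator is not given in the sources used here, so the cells that expressed either transgene cannot be named. The p-values set a difference between groups against the spread between pools, and not between single mice.

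Both transgenes act on CREB, which binds the letters TGACGTCA and their first part TGACG, so the start of the genes was read for these letters. RefSeq windows of 300 bases (GRCm38.p6, 250 before to 50 after an annotated start) were matched for 6 of the 9 genes, with 10 windows in all, and both strands were searched. Lrrtm2, Nrxn2 and Nlgn3 had no match. The 8 letters occurred in 0 of the 10 windows, against 1.79% of the 32851 windows of all genes. The 5 letters, which every match to the 8 letters also contains, occurred in 1 of the 10, against 20.8% of all windows. The windows of Lrrtm4, the gene that stood lowest, and of Nlgn2, the gene whose window held the match, are given 5′ to 3′ on the strand of the gene, with TGACG in capitals. The Lrrtm4 windows lie at chr6:80018627-80018926 and chr6:80019393-80019692 on the plus strand, and that of Nlgn2 at chr11:69837735-69838034 on the minus strand.
Lrrtm4 window 1: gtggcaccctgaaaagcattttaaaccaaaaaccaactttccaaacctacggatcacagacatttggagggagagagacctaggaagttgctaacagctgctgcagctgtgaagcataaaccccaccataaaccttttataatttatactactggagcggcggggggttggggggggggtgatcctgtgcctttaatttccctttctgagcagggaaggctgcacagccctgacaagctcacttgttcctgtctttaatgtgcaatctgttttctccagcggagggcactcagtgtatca
Lrrtm4 window 2: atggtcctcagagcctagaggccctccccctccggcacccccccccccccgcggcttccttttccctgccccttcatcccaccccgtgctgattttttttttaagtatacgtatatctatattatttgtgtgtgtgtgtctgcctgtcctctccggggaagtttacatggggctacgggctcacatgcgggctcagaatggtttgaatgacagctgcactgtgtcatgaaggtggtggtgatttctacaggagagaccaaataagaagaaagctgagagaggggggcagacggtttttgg
Nlgn2 window: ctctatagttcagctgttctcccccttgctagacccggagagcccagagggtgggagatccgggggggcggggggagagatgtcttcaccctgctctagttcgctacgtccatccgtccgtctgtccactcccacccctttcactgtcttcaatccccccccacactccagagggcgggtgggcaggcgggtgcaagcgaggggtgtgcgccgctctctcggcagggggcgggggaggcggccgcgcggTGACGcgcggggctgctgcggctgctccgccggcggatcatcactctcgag
The match in Nlgn2 begins 1 base before the annotated start. The absence of a match says only that these letters are not in these windows.

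The arrays of the 3 week cohort stood apart from the others. Their median intensity was 119.2 to 129.7, against 75.28 to 93.61 on the other 10 arrays, so differences were taken only within a cohort, against the littermates of the same cohort. Actin signal at its 3' end over that at its 5' end, which rises as RNA degrades, was 1.44 to 1.61 in the VP16-CREB pools at 3 weeks and 1.36 to 1.56 in their littermates. It spread more in the other cohorts, with 1.59 and 1.40 in VP16-CREB pools at 1 week against 1.47 and 2.00 in littermates, and 1.52, 1.40 and 2.48 in A-CREB pools against 1.98, 1.37 and 1.65 in littermates. Its part in the results of these cohorts was not tested. In the A-CREB cohort, replicate 1 of both groups was low in Xist (63.4 in the A-CREB pool and 34.5 in the littermate pool), and results were also computed without these 2 pools. Creb1 probe set 1421582_a_at was 32.3-fold higher in VP16-CREB pools than in littermates at 1 week and 19.1-fold at 3 weeks. The VP16-CREB pools there read 735 and 991 at 1 week and 1097 to 1266 at 3 weeks. Littermates read 5.38 and 36.4, and 32.2 to 67.3, all below the median of 99.1 over all values. Creb1 probe set 1452529_a_at was 7.01-fold higher at 1 week and 4.82-fold at 3 weeks. Folds at the other Creb1 probe sets, 1423402_at, 1428755_at and 1452901_at, were 0.860 to 1.14. Whether any of these probe sets reads the transgene was not examined. The test was limma on the log2 of the intensity plus 10, with all 16 arrays in 1 fit, and a probe set passed at an adjusted p under 0.05 (Benjamini-Hochberg over 27044 probe sets).

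Lrrtm4 lies on chromosome 6 (80018858 to 80810162, GRCm38.p6) and has 2 probe sets. At 3 weeks off dox, probe set 1437214_at read 208, 222 and 220 in the VP16-CREB pools, against 801, 813 and 782 in littermates. The groups did not overlap, and each group spread over a narrow range. Means were 216.9 ± 7.52 in VP16-CREB pools and 798.4 ± 15.8 in littermates (SD, n = 3 each), a log2 difference of -1.83 (SE 0.24). A lower difference was found in 0.0111% of all probe sets tested. This was the only 1 of the 25 member probe sets that passed the threshold as lower, where 0.651% of all probe sets did, and in either direction 3.93% of all did. Lrrtm4 was chosen on this contrast, so its pass followed from the choice and is no support. In whole tissue, fewer cells that express a gene and less RNA per cell cannot be told apart.

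The second probe set of Lrrtm4, 1455937_at, read 363, 370 and 233 in VP16-CREB pools at 3 weeks, against 509, 582 and 533 in littermates. All VP16-CREB pools were again below all littermate pools, with means of 322.0 ± 76.8 in VP16-CREB pools and 541.1 ± 37.3 in littermates. Its log2 difference was -0.76 (SE 0.25), smaller than at 1437214_at, and it did not pass the threshold. The deposited table does not give the part of the transcript that each probe set reads, so whether the probe sets read the same isoforms was not tested.

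One week after dox removal, Lrrtm4 was lower in VP16-CREB pools by values at 1437214_at, but neither probe set passed the test. At 1437214_at the VP16-CREB pools read 347 and 542, against 666 and 933 in littermates. Both VP16-CREB pools were below both littermate pools, with means of 444.5 ± 138 in VP16-CREB pools and 799.6 ± 188 in littermates (SD, n = 2 each). The log2 difference was -0.85 (SE 0.29, 95% interval -1.48 to -0.22), with an unadjusted p of 0.0122 and a limma adjusted p of 0.591, and it ranged from -1.16 to -0.53 when 1 pool was left out. At 1455937_at the VP16-CREB pools read 301 and 404, against 320 and 571 in littermates, and the groups overlapped (log2 -0.29, limma adjusted p = 1). Its difference was -0.70 to 0.12 with 1 pool left out, and above 0 without littermate replicate 2.

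In A-CREB mice the probe sets of Lrrtm4 differed from littermates with opposite signs, and neither passed the test. Probe set 1437214_at read 542, 471 and 636 in A-CREB pools, against 892, 439 and 564 in littermates, and 1455937_at read 457, 553 and 757 in A-CREB pools, against 521, 380 and 475 in littermates. The pools of both groups overlapped at both probe sets. The log2 differences were -0.15 at 1437214_at (95% interval -0.66 to 0.37) and 0.34 at 1455937_at (-0.21 to 0.88), each with a limma adjusted p of 1. With pools left out, the difference at 1437214_at lay between -0.37 and 0.14, the highest without replicate 1 of both groups.

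**Figure D1:**
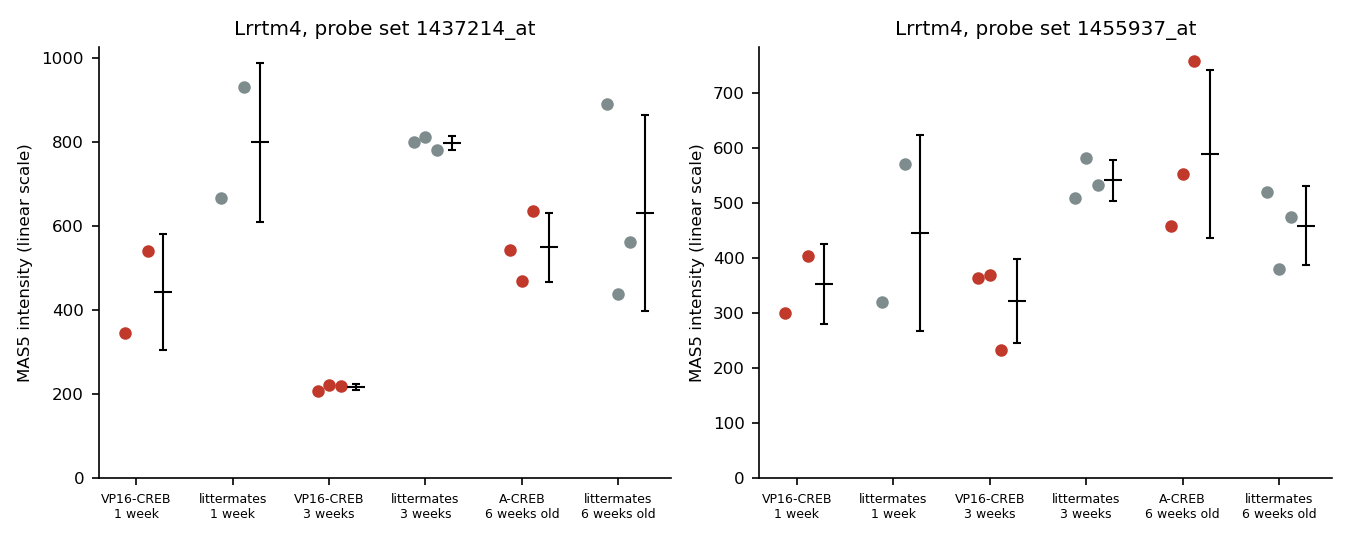
Intensity of Lrrtm4 (linear MAS5 scale) at its 2 probe sets on each of the 16 arrays. Points are pools, with transgenic pools in red and their littermates in grey, and bars are the mean and SD. At 1437214_at the 3 VP16-CREB pools at 3 weeks sit between 208 and 222, against 782 to 813 in littermates, and the 2 pools at 1 week sit at 347 and 542, against 666 and 933.

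None of the 10 probe sets of the other LRRTM genes passed the threshold at 3 weeks, and all but 1434761_at of Lrrtm3 overlapped between the groups. The log2 differences lay between -0.47 and 0.25, with a median of -0.15, and 9 of the 10 were below 0. Lrrtm3 (chromosome 10), whose protein also binds heparan sulphate, had the lowest of them. Probe set 1434761_at read 248, 256 and 168 in VP16-CREB pools, against 290, 313 and 321 in littermates, without overlap (log2 -0.47, SE 0.21). The other probe sets of Lrrtm3 overlapped between the groups and differed by -0.15 (1434759_at), -0.14 (1434760_at) and 0.25 (1440112_at) on the log2 scale.

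Lrrtm1, a neurexin-binding member, lies on chromosome 6 with Lrrtm4, 2.76 megabases away. At 1455883_a_at it read 1653, 2155 and 1868 in VP16-CREB pools at 3 weeks, against 2872, 1915 and 2663 in littermates (log2 -0.38, SE 0.18). The groups overlapped, because littermate replicate 2 lay below the highest VP16-CREB pool. The other Lrrtm1 probe sets differed by -0.16 (1437746_at) and -0.25 (1452624_at), also with overlap. Lrrtm2, which binds neurexins as Lrrtm1 does, read 1683, 1715 and 1462 in VP16-CREB pools at 1437787_at, against 1698, 1608 and 1610 in littermates. Its 3 probe sets differed by -0.02 to -0.15 at 3 weeks, within the spread of the pools. At each of them the sign changed when some pool was left out.

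At 1 week the 10 probe sets of Lrrtm1, Lrrtm2 and Lrrtm3 differed by -0.49 to 0.47, with a median of -0.03 and none past the threshold. Lrrtm3 at 1434760_at read 249 and 255 in VP16-CREB pools, against 311 and 411 in littermates (log2 -0.49, 95% interval -0.92 to -0.06, limma adjusted p = 0.79). It was -0.29 without littermate replicate 2. It did not overlap between the groups at 1 week and did at 3 weeks. Lrrtm1 at 1452624_at read 1230 and 1214 in VP16-CREB pools, against 1563 and 1563 in littermates (log2 -0.35, limma adjusted p = 1). Lrrtm2 spread most between pools: at 1437787_at the littermates alone read 575 and 1682 at 1 week, and the A-CREB pools 724, 1782 and 2641, a 3.65-fold range within 1 group. In A-CREB mice the 10 probe sets differed by -0.17 to 0.08, all with overlap and with a limma adjusted p of 1.

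Among the presynaptic neurexins, Nrxn3 and Nrxn2 differed in sign at 3 weeks. All 5 probe sets of Nrxn3 (chromosome 12) were lower in VP16-CREB pools by values, with log2 differences of -0.19 to -0.38, and none passed the threshold. At 1433788_at Nrxn3 read 2923, 3440 and 3077 in VP16-CREB pools, against 3898, 3680 and 3636 in littermates. At 1439629_at it read 283, 373 and 272 in VP16-CREB pools, against 419, 381 and 408 in littermates. The groups did not overlap at these 2 probe sets (log2 -0.25, SE 0.23, and -0.38, SE 0.17) and overlapped at the other 3.

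Nrxn2 (chromosome 19) was not lower at 3 weeks. At 1435907_at it read 1343, 1029 and 1144 in VP16-CREB pools, against 1051, 923 and 1145 in littermates, with overlap (log2 0.17, SE 0.19), and 1455499_at differed by 0.14. One week after dox removal the sign was the other way: 1435907_at read 779 and 1183 in VP16-CREB pools, against 1286 and 1484 in littermates, without overlap (log2 -0.52, 95% interval -1.02 to -0.02, limma adjusted p = 0.903). It was -0.22 without VP16-CREB replicate 1 and -0.82 without VP16-CREB replicate 2. The difference between the time points was not tested, because it contains the 3 week contrast. In A-CREB mice the Nrxn2 probe sets differed by -0.22 and -0.47, with overlap and a limma adjusted p of 1.

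One probe set of Nrxn3 was higher at 1 week. At 1432931_at the VP16-CREB pools read 55.0 and 57.9, against 1.80 and 27.6 in littermates, all below the median of 99.1 over all values (log2 1.66, SE 0.49, unadjusted p = 0.00464, limma adjusted p = 0.38). At 3 weeks it read 136, 108 and 124 in VP16-CREB pools, against 147, 158 and 121 in littermates, with overlap. The log2 difference at 1 week rested on the littermate pool at 1.80, and it was 0.82 without that pool and 2.49 without the other littermate pool. It also moved with the pseudocount, to 3.00 without one and 1.12 with one of 25. The other 4 probe sets of Nrxn3 differed by -0.02 to -0.43 at 1 week, with limma adjusted p of 0.993 or more.

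The neuroligins, postsynaptic partners of the neurexins, gave differences of both signs at 3 weeks. Nlgn1 (chromosome 3) at 1437160_at read 1091, 1152 and 1154 in VP16-CREB pools, against 1627, 1346 and 1396 in littermates, without overlap (log2 -0.36, SE 0.26). Nlgn3 (chromosome X) at 1436135_at read 477, 532 and 469 in VP16-CREB pools, against 587, 647 and 624 in littermates, also without overlap (log2 -0.33, SE 0.21). Neither passed the threshold, and the other Nlgn3 probe sets gave -0.37 (1453756_at) and 0.27 (1456384_at), both with overlap. Nlgn2 (chromosome 11), the neuroligin of inhibitory synapses, read 3705, 2492 and 2651 in VP16-CREB pools at 1455143_at, against 2438, 3799 and 2294 in littermates (log2 0.07, SE 0.23). Its groups overlapped there and at 1460013_at (0.33). The Nlgn1 probe set that was not tested, 1421648_at, read 2.46 to 45.0 over the 16 arrays and was above the overall median on 0 of them.

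At 1 week the 6 neuroligin probe sets tested differed by -0.19 to 0.14, each with a limma adjusted p of 1. In A-CREB mice the lowest log2 difference among the tested member probe sets was that of Nlgn3 at 1456384_at. It read 101, 83.4 and 85.7 in A-CREB pools, against 159, 124 and 187 in littermates. The pools at 83.4 and 85.7 were below the median of 99.1 over all values. All A-CREB pools were below all littermate pools (log2 -0.72, 95% interval -1.25 to -0.20, unadjusted p = 0.0108, limma adjusted p = 1). The other Nlgn3 probe sets in A-CREB mice differed by 0.04 (1436135_at) and -0.07 (1453756_at) and overlapped between the groups, so the probe sets of the gene disagreed.

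**Figure D2:**
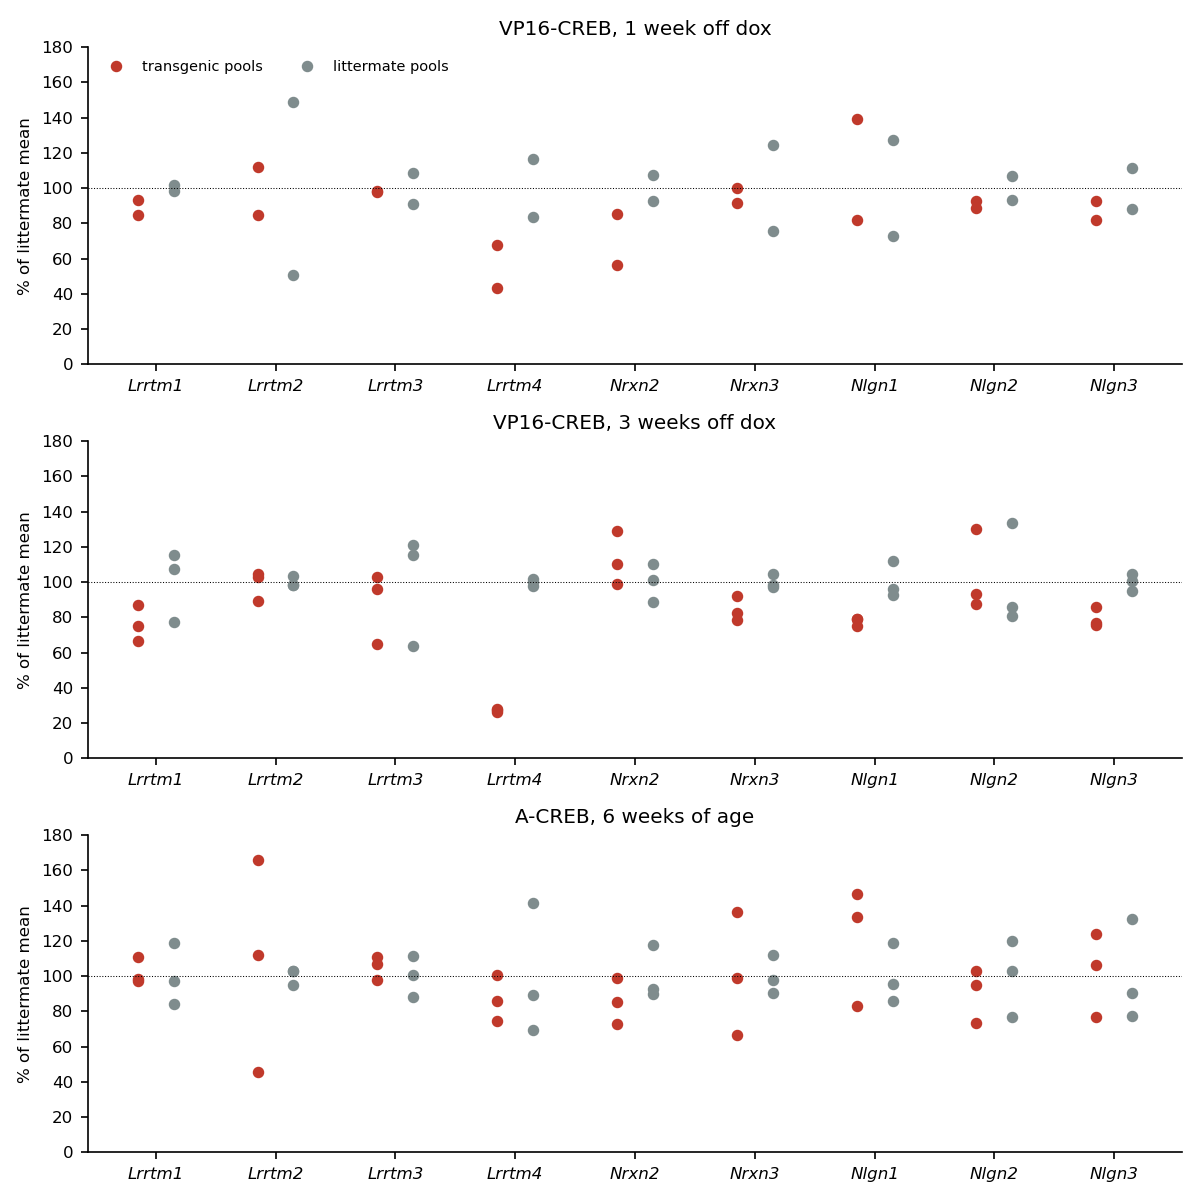
Each member at its probe set of highest mean, as a percentage of the mean of the littermates of its cohort (dotted line at 100), with transgenic pools in red and littermate pools in grey. At 3 weeks the Lrrtm4 pools stand at 26.1% to 27.8%, and the lowest VP16-CREB pool of any other member is at 65.1%. The second Lrrtm4 probe set, 1455937_at, with a smaller log2 difference of -0.76 at 3 weeks, is not drawn.

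Over all members, both Lrrtm4 probe sets lay below the range of the rest at 3 weeks by values. Lrrtm4 was chosen on this contrast, so its place is a description and no support. The log2 difference at 1455937_at, -0.76 (SE 0.25), was nearer to the rest than that at 1437214_at, -1.83 (SE 0.24). Without the 2 Lrrtm4 probe sets, the other 23 differed by -0.47 to 0.33 on the log2 scale. Their median was -0.16, against -0.01 over all probe sets tested. Of these 23, 17 were below 0, 5 did not overlap as lower and 0 passed the threshold. With arrays centred on their medians, 18 of the 23 were below 0, 1 of them with the sign turned, and with quantile normalization 17 were, with the signs as given. With Lrrtm4, 7 of 25 did not overlap as lower at 3 weeks, where 12.8% of all probe sets did, and 0 did so as higher, where 14.9% did. With array weights 4 of the 25 passed at 3 weeks, both Lrrtm4 probe sets, Lrrtm1 at 1455883_a_at and Lrrtm3 at 1434761_at, where 15.3% of all probe sets passed. The difference between Lrrtm4 and the other members was not tested.

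At 1 week 0 of the 25 member probe sets passed the threshold, where 0.237% of all probe sets did (0.0185% as lower and 0.218% as higher), and 4 had an unadjusted p under 0.05, where 5.27% of all did. Their median log2 difference was -0.09, against 0.02 over all tested, with 18 of 25 below 0. Of the 25, 8 did not overlap as lower, where 12.9% of all did, and 1 as higher, where 15.7% did. In A-CREB mice 0 of 25 passed the limma threshold, as did 0 of all 27044 probe sets (0%), and 1 member had an unadjusted p under 0.05, where 4.33% of all probe sets did. The other settings called 0 to 4 probe sets over the whole array in that comparison, none of them a member. The median there was -0.08, against 0.00 over all tested, and 1 of 25 did not overlap as lower, where 3.28% of all did, and 0 as higher, where 3.54% did.

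**Figure D3:**
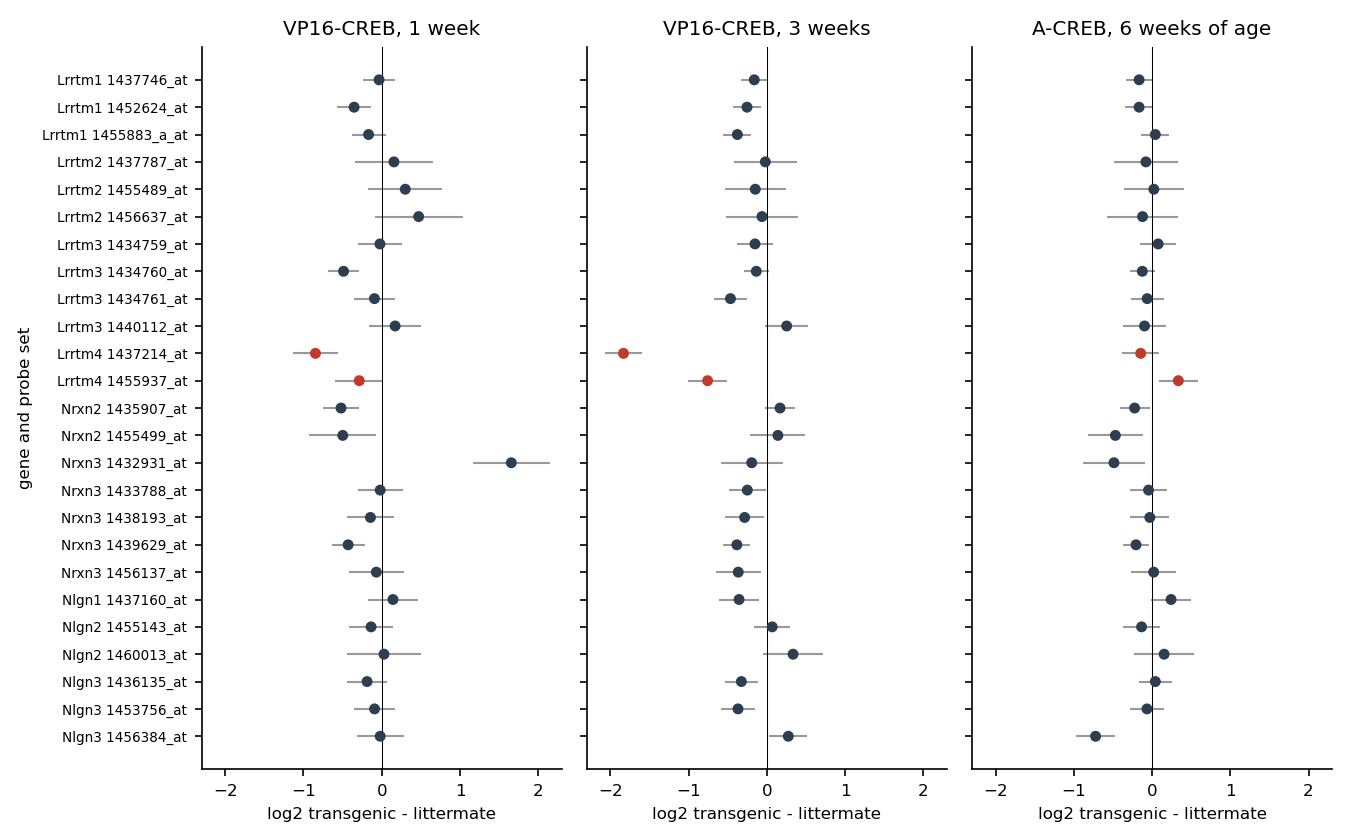
Log2 difference between transgenic and littermate pools for the 25 tested probe sets of the 9 genes in each comparison, with bars of 1 SE and Lrrtm4 in red. Lrrtm4 at 1437214_at is at -0.85 at 1 week, -1.83 at 3 weeks and -0.15 in A-CREB mice, and the other 23 probe sets at 3 weeks lie between -0.47 and 0.33.

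The proteins that meet this set at the synapse were read from lists of known partners, in all 82 genes, of which 68 were measured. The lists were chosen with earlier results of these data known. Each gene was taken at its probe set of highest mean, while the shares over the array are of all tested probe sets. The counts are therefore a description. At 3 weeks 5 of the 68 passed the threshold as lower and 0 as higher, where 0.651% and 3.28% of all probe sets did, and the median log2 difference was -0.15. The 2 lowest were secreted ligands: C1ql2 and C1ql3 encode C1q-like proteins that bind neurexins and, at mossy fibre synapses of the hippocampus, kainate receptors. C1ql2 read 263, 352 and 338 in VP16-CREB pools, against 1198, 1082 and 1049 in littermates (log2 -1.78, SE 0.31). C1ql3 read 2750, 2936 and 2756 in VP16-CREB pools, against 6573, 6996 and 6768 in littermates (log2 -1.27, SE 0.25). Neither overlapped between groups, and both passed under all 16 alternative settings. The other 2 probe sets of C1ql3 differed by -1.01 and -1.04 and did not pass. The other 10 ligands, among them the cerebellins and neurexophilins, did not pass.

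Gpc4, the glypican that LRRTM4 binds, was the 1 of 7 heparan sulphate proteoglycan genes that passed. At 1421088_at it read 364, 572 and 481 in VP16-CREB pools at 3 weeks, against 761, 986 and 953 in littermates (log2 -0.93, SE 0.19), and its second probe set 1436514_at also passed (log2 -1.08). The groups did not overlap at either. The other 6 genes, of the glypican and syndecan families, differed by 0.02 to 0.78 and did not pass. The call of Gpc4 at 1421088_at was lost without VP16-CREB replicate 1 or 3 or littermate replicate 2 or 3, where its difference lay within -1.08 to -0.76.

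The LAR-type receptor phosphatases and their postsynaptic partners gave 2 of 21 genes past the threshold at 3 weeks, with a median of -0.39. Ntng1, which encodes the axonal protein netrin-G1, read 610, 579 and 475 in VP16-CREB pools, against 937, 930 and 949 in littermates (log2 -0.76, SE 0.19). Il1rap, the accessory protein of the interleukin 1 receptor and a partner of PTPRD, read 398, 322 and 241 at 1442614_at in VP16-CREB pools, against 577, 637 and 553 in littermates (log2 -0.88, SE 0.19). The other 3 probe sets of Il1rap differed by 0.09, 0.26 and -0.90 and those of Ntng1 by -0.74, -0.62 and -0.93, and none of these passed. Leaving out any 1 of the 6 pools ended the call of Ntng1 (-0.83 to -0.65), which passed in 7 of the 16 alternative settings. That of Il1rap was lost without VP16-CREB replicate 2 or 3 or littermate replicate 1 or 2 (range -1.05 to -0.70).

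None of the remaining lists held a gene past the threshold at 3 weeks. The 8 scaffold genes of excitatory synapses that were measured lay between -0.42 and -0.01, with Homer1, a scaffold of glutamate receptors, at -0.16 and Dlg1, a neuroligin-binding type of scaffold, at -0.27. Gphn, which encodes the scaffold gephyrin of inhibitory synapses, differed by -0.19. The 6 presynaptic partners of neurexins had a median of -0.22, with Lin7c at -0.34 and Lin7a at -0.19. The 8 genes of FLRT, latrophilin and SynCAM adhesion had a median of -0.16, with Cadm1, a SynCAM gene, at -0.25. The neuroligin inhibitors Mdga1 and Mdga2 and the sheddase gene Adam10 gave -0.21, -0.08 and -0.04. Of the alpha-catenin genes that hold an Lrrtm gene in an intron, Ctnna2, host of Lrrtm1, differed by -0.39 and Ctnna1, host of Lrrtm2, by 0.53, both without overlap.

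At 1 week 0 of the 68 partner genes passed, with a median of -0.14 and 51 below 0, and in A-CREB mice 0 passed, with a median of -0.07 and 45 below 0. C1ql2 was lower in all pools of both. It read 402 and 456 in VP16-CREB pools at 1 week, against 1006 and 985 in littermates (log2 -1.20, SE 0.38, limma adjusted p = 0.485). In A-CREB pools it read 335, 272 and 323, against 670, 367 and 1255 in littermates (log2 -1.11, SE 0.31, limma adjusted p = 0.846, with 0.0631 to 1 over the alternative settings). The A-CREB difference was -1.54 without littermate replicate 2 and -0.67 without littermate replicate 3. Ntng1 differed by -0.59 at 1 week (limma adjusted p = 0.75, and -0.86 to -0.33 with 1 pool left out) and Gpc4 by -0.36 at 1421088_at and -0.50 at 1436514_at (limma adjusted p = 1 and 0.856).

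**Figure D4:**
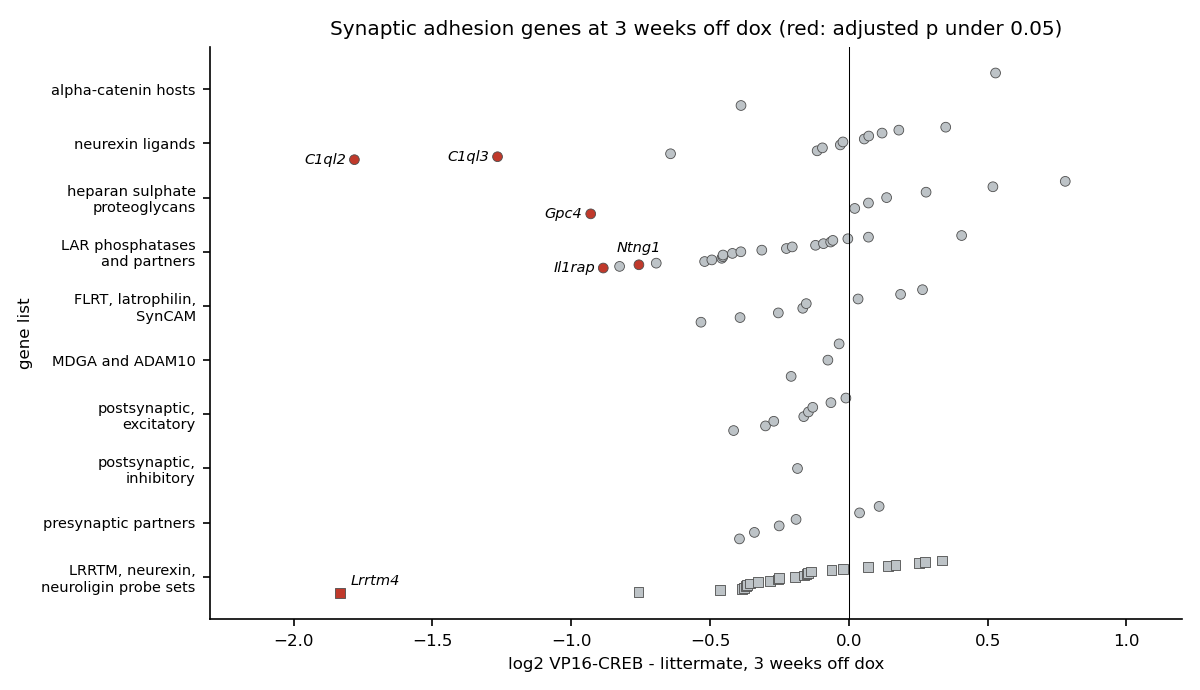
Log2 difference between VP16-CREB and littermate pools at 3 weeks for the 68 partner genes (circles, by list) and the 25 member probe sets (squares), with those past the threshold in red. The red points are Lrrtm4 at -1.83, C1ql2 at -1.78, C1ql3 at -1.27, Gpc4 at -0.93, Il1rap at -0.88 and Ntng1 at -0.76.

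Markers of dentate granule neurons were lower beside Lrrtm4. At 3 weeks 12 of 12 were lower in VP16-CREB pools by values and 9 of 12 passed the threshold as lower, with a median log2 difference of -1.17. Their summed intensity was 5729 to 7336 in VP16-CREB pools, against 12308 to 13135 in littermates. Prox1, the transcription factor that defines these neurons, read 177, 151 and 158 in VP16-CREB pools, against 413, 368 and 372 in littermates (log2 -1.20), and was not at 0. C1ql2 is on this list as well as among the neurexin ligands, and Prox1, C1ql2, Dsp and Lct passed under all 16 alternative settings, while the other 5 called markers lost the call in 3 to 9 of them. At 1 week the median was -0.41, with 11 of 12 below 0 and 0 past the threshold, and sums were 9786 to 9802 in VP16-CREB pools, against 11830 to 12855 in littermates. In A-CREB mice the median was -0.16 and the sums overlapped, at 9595 to 12390 in A-CREB pools and 9850 to 12458 in littermates. The marker lists were also chosen with earlier results of these data known. The part of these markers in the result for Lrrtm4 was not tested.

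Other cell types differed at 3 weeks as well. Of 10 markers of neurons in general 0 passed (median -0.21), with sums of 81304 to 109080 in VP16-CREB pools and 93207 to 126990 in littermates. The 5 measured markers of CA1 pyramidal neurons had a median of -0.62 and 0 past the threshold. Of 5 markers of CA3 pyramidal neurons 1 passed as lower and 4 were below 0, with a median of -0.27. Sums of CA1 markers were 7338 to 8452 in VP16-CREB pools and 11366 to 12128 in littermates. Those of CA3 markers were 6529 to 6955 in VP16-CREB pools and 9871 to 11285 in littermates. A lower sum without overlap was thus not particular to dentate granule neurons, though a sum mostly follows its markers of highest intensity. Of 11 microglia markers 10 passed as higher (median 2.28), with sums of 50208 to 59322 in VP16-CREB pools and 12601 to 13207 in littermates, and 2 of 6 astrocyte markers and 1 of 6 interneuron markers passed as higher. All 4 choroid plexus markers were below 0 (median -0.73) and 0 passed. Their sums overlapped, at 6741 to 26458 in VP16-CREB pools and 14974 to 36828 in littermates. Markers of oligodendrocytes and endothelium had medians of -0.03 and -0.04, with 0 past the threshold. At 1 week 1 of 11 microglia markers passed as higher (median 0.95), with sums of 22672 to 25705 in VP16-CREB pools and 12064 to 16950 in littermates, and so did 1 of 6 astrocyte markers. The CA1 markers had a median of -0.40 at 1 week and 0 past the threshold, with sums of 7989 to 8339 in VP16-CREB pools and 9810 to 11869 in littermates. Sums of CA3 markers at 1 week were 7659 to 8967 in VP16-CREB pools and 10288 to 11191 in littermates (median -0.06). The part of these in the values of the members was not tested.

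**Figure D5:**
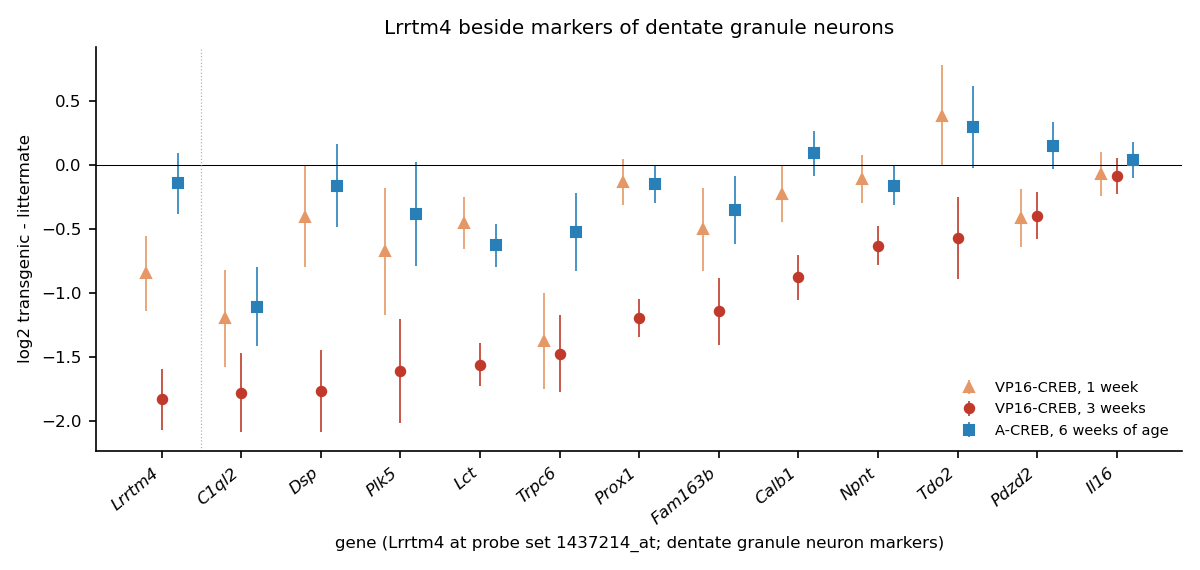
Log2 difference between transgenic and littermate pools, with bars of 1 SE, for Lrrtm4 at 1437214_at and the 12 markers of dentate granule neurons, ordered by their difference at 3 weeks. At 3 weeks Lrrtm4 (-1.83) lies beside C1ql2 (-1.78) and Dsp (-1.77), and all 12 markers are below 0.

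The genes whose pattern lay nearest to Lrrtm4 at 1437214_at were named by the mean absolute difference of their log2 deviations from the littermate mean over the 16 arrays. They were Stxbp6 (0.198), Rasl10a (0.245), Prox1os (0.254), Epha7 (0.262) and Dsp (0.285). At 3 weeks these 5 differed by -1.54, -2.06, -1.20, -1.21 and -1.77, and at 1 week by -0.67, -1.10, -0.39, -0.36 and -0.40. The nearest other member was Nrxn3 at 1439629_at, with a distance of 0.479 and rank 649 among the probe sets tested. The measure includes the 3 week arrays on which Lrrtm4 was chosen, so it is a description.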

How the data were processed

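The authors deposited 1 intensity per probe set for each of 16 arrays, on a linear scale and made with MAS5 per the submitters' processing notes (the version is not given in the sources used here), and their scaling was kept. RNA came from pools of 3 to 4 mice, per the labels. Of 45101 probe sets, 64 controls were left out, and 27044 (60.0%) above the median of all values (99.1) on at least 2 arrays were tested. Values were log2 of intensity plus 10. A linear model per probe set with a mean per group over all 16 arrays, moderated by limma (limma 3.58.1, R 4.3.3), left 10 residual degrees of freedom, to which the moderation added 3.44. Each transgenic group was set against the littermates of its cohort, with Benjamini-Hochberg adjustment over 27044. Precision is limited by the number of arrays.

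The members and lists were chosen with earlier results of these data known, so the 3 week contrast carries no p-value. All member probe sets were named. List genes were taken at the probe set of highest mean, with up to 4 called genes per list or the highest in mean, and a few ligands and host genes. The 5 genes most like Lrrtm4 were named by distance. Alternatives were the pseudocount, filter, scaling, array weights, a trended robust prior, fits on only the groups compared, a replicate block and leaving out pools. The fit was tested on simulated data, with 100 probe sets lowered 2-fold and 100 lowered 4-fold for each comparison. Of the 2-fold falls, the 3 week contrast called 45, the 1 week contrast 17 and the A-CREB contrast 42. Of the 4-fold falls they called 93, 84 and 96, with 6, 2 and 4 false calls. Most 2-fold falls were thus missed, so a probe set without a call may still differ by that much. Promoter windows and gene positions were from RefSeq (GRCm38.p6), and figures were drawn with matplotlib 3.10.9 (Python 3.11.15). A-CREB arrays of other ages were not analysed here.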

Additional observations from a re-analysis of the deposited data

How the results depend on the processing

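No member probe set passed the threshold at 1 week or in A-CREB mice under any of the 14 and 17 alternative settings. At 3 weeks Lrrtm4 at 1437214_at passed in all of its 16, with a log2 difference of -1.88 without a pseudocount, -1.77 with a pseudocount of 25, -2.08 after quantile normalization and -1.91 after median centring, against -1.83. These calls are a description, because Lrrtm4 was chosen on that contrast. Leaving out 1 pool gave -1.85 to -1.81 at 3 weeks, -1.16 to -0.53 at 1 week (lowest in size without VP16-CREB replicate 1) and -0.37 to 0.13 in A-CREB mice, where it was 0.14 without replicate 1 of both groups, and the count of member probe sets called stayed at 1, 0 and 0. With array weights 4 member probe sets passed at 3 weeks, Lrrtm4 at 1437214_at (-1.81) and 1455937_at (-0.78), Lrrtm1 at 1455883_a_at (-0.44) and Lrrtm3 at 1434761_at (-0.50), among 4137 over the array (64.3% higher) against 1062 (83.4% higher). The cause was not tested. Over the whole array, 584 to 854 passed at 3 weeks with 1 pool left out (584 without VP16-CREB replicate 3). At 1 week 64 passed, against 16 to 45 with 1 pool left out, (17 higher and 22 lower without VP16-CREB replicate 2), 0 with only the 2 groups fitted, 32 without the filter and 31 with array weights. Median centring turned 59 higher and 5 lower into 50 and 12 there and moved the median of all probe sets to -0.09, against 0.02, where Lrrtm4 at 1437214_at was at -0.95. Deviations of pools of the same number correlated below 0 in 2 of 3 pairs at 3 weeks and 1 of 3 in A-CREB mice (correlations of -0.164, -0.228 and 0.218 at 3 weeks, 0.153 for both pairs at 1 week, which is fixed to be equal with 2 pools a group, and -0.0516, 0.407 and 0.265 in A-CREB mice). The numbers were not taken to pair the samples. In the A-CREB cohort they may do so. Replicates 2 and 3 there gave -0.366 and -0.335 across numbers, and replicate 1 of both groups was low in Xist. With a replicate block 859 passed at 3 weeks, 23 at 1 week and 0 in A-CREB mice, the differences are the same by construction, and the limma adjusted p of Lrrtm4 at 1437214_at at 1 week was 0.398, within 0.356 to 1 over all settings. The few arrays per group, 2 to 3, and intensities near background at Nrxn3 1432931_at and Nlgn1 1421648_at limit what could be seen.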
